A study of Mus musculus with 2 samples.

Results

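Imprinted genes are described here as they were expressed in the lung of mouse embryos on embryonic day 16.5. The set is a named list of 38 genes known to be imprinted in the mouse. It was chosen by name without a threshold on level, but with earlier results of these data known. All 38 were found among the 43346 gene rows of the deposited tables. They lie in 16 chromosomal domains on 9 chromosomes, and 33 of them code for protein while 5 are long noncoding RNA genes. The series holds 2 libraries of total RNA, biological replicates 1 and 2 of a single group: whole lungs of strain B6NCrl, each library from embryos of both sexes pooled, with 41 embryos stated for replicate 2 and no number for replicate 1. For each library 10 ng of RNA longer than 200 nt was used. There is no other age, tissue or treatment, so nothing between conditions was tested. Values are TPM, which gives a gene's share of the transcripts in a library after division by length. Means are given ± SD over the replicates (n = 2), and the SD covers only the spread between these pools.

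Genomic imprinting is the expression of a gene mainly from the copy inherited from the mother or mainly from the copy inherited from the father. It is set by DNA methylation laid down in egg or sperm at control regions, kept through development by factors such as ZFP57 with TRIM28, and read by neighbouring genes through insulators and long noncoding RNAs. Many paternally expressed genes promote growth of the fetus and many maternally expressed genes restrain it, and a number of them are known for high levels in fetal organs and low levels after birth. B6NCrl is an inbred strain, so maternal and paternal copies have the same sequence and these libraries cannot tell them apart. The parental allele named for each gene below is prior knowledge, not a measurement. In whole tissue, fewer cells of a type and less RNA per cell cannot be told apart.

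The tissue label was checked against markers. All 6 markers of lung epithelium, all 6 of lung mesenchyme and all 6 of endothelium reached 1 TPM in both libraries, and none of 6 brain or 4 thyroid markers did. Markers of liver, skeletal muscle and cardiac muscle were present and differed between the pools. Whether their RNA came from outside the lung was not tested. The 8 liver markers summed to 63.6 and 519 TPM in replicates 1 and 2, the 8 skeletal muscle markers to 205 and 568 TPM, and the 8 cardiac markers to 1320 and 1098 TPM. None of the liver or muscle markers was at 0 in either library. Replicate 1 was the deeper library, with 38852470 expected counts against 27145411 for replicate 2.

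Imprinted genes were broadly expressed in this lung, from 0.04 TPM to above 1000 TPM. Of the 38 genes, 33 (28 of the 33 that code for protein) reached 1 TPM in both replicates, beside 34.2% of all gene rows and 61.5% of genes coding for protein. Those at 100 TPM or more in both replicates were 9: Mest, Gnas, Dlk1, Nnat, Grb10, Meg3, Cdkn1c, Ndn and Plagl1. For all gene rows that share was 3.7%, and for genes coding for protein 7.06%, against 8 of the 33 coding members. The list holds genes known for their fetal expression, so these counts describe the list and say nothing of imprinted genes as a class. The median of the 38 was 22.9 and 20.2 TPM in replicates 1 and 2, the order used for all paired values here, or 21.5 ± 1.91 TPM, whereas the median over all genes coding for protein was 4.87 ± 0.219 TPM. Together the 38 genes took 0.608% and 0.557% of the TPM of gene rows.

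**Figure D1:**
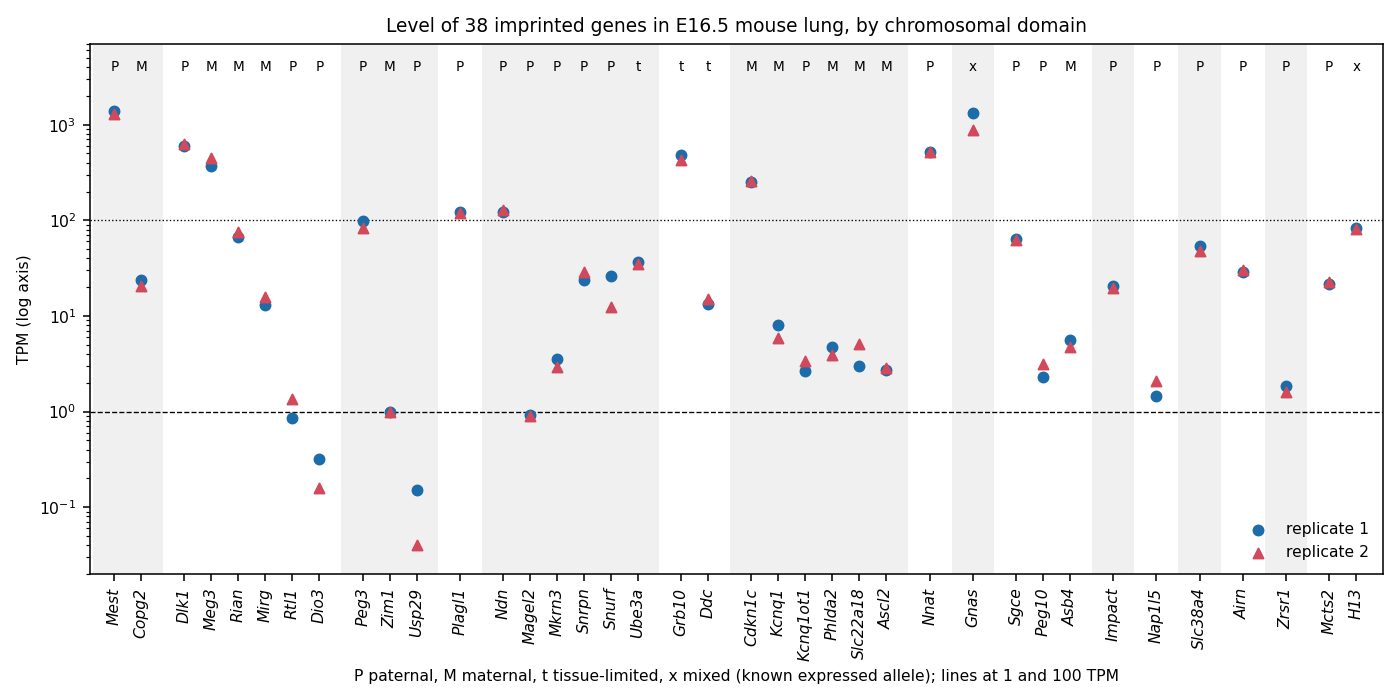
TPM of each of the 38 imprinted genes on a log axis, with replicate 1 as circles and replicate 2 as triangles, grouped by chromosomal domain (shading) and with the known expressed allele above each gene. Within the Dlk1-Dio3, Peg3 and Kcnq1 domains neighbours lie far apart, and Mest and Gnas top the plot.

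The 5 genes that missed 1 TPM in at least 1 library were Rtl1, Zim1, Magel2, Dio3 and Usp29. Rtl1, a coding gene derived from a retrotransposon, was at 0.86 and 1.34 TPM, on either side of the line. Zim1, a zinc finger gene, was at 0.99 and 1.00 TPM, so the threshold alone set its place. Magel2, a MAGE family gene, was at 0.91 and 0.89 TPM. Dio3, which encodes the deiodinase that inactivates thyroid hormone, had 16 expected counts in replicate 1 and 4 in replicate 2, at 0.32 and 0.16 TPM. Usp29, a ubiquitin peptidase gene, had 10 and 2 expected counts, at 0.15 and 0.04 TPM, the lowest level of the 38.

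Grouped by known allele, 22 genes were classed as paternal and 11 as maternal. Another 3 were classed as imprinted in some tissues only (Ube3a, Grb10 and Ddc), and 2 as making both imprinted and other products (Gnas and H13). Genes classed as paternal or maternal may also be imprinted in some tissues only, and the allele used in this lung was not measured. The paternal genes had medians of 22.9 and 21.2 TPM, with 18 of 22 detected in both libraries. Medians of the maternal genes were 8.05 and 5.90 TPM, with 10 of 11 detected in both. The difference between these medians was not tested, since genes of 1 domain share their control and are not independent. Each class held levels far apart: Mest at 1337 ± 71.1 and Usp29 at 0.095 ± 0.0778 TPM among the paternal genes, and Meg3 at 409 ± 60.6 and Zim1 at 0.995 ± 0.00707 TPM among the maternal ones. By summed level, the paternal genes held 3048 ± 64.5 TPM and the maternal genes 795 ± 73.1 TPM.

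Mest and Copg2 converge on chromosome 6. Mest (chr6:30723547-30748465, plus strand, build mm10), which encodes an enzyme of the alpha/beta hydrolase fold known from growing mesoderm, was at 1388 and 1287 TPM, the highest of the 38 in mean and above 99.6% of all detected genes. Copg2 (chr6:30747554-30896794, minus strand), a subunit of the COPI vesicle coat, was at 23.97 and 20.70 TPM. Mest exceeded Copg2 by 5.91 ± 0.07 on the log2 scale of TPM. The gene bodies overlap by 912 bases at their 3' ends on opposite strands, and the strand setting of the counting is not given in the sources used here, so reads there may have been assigned to either. Of the 6 start regions annotated for Mest, 1 carried nearly all of its RNA, with 98.9% in replicate 1 and 98.0% in replicate 2. A start region here joins annotated transcript starts no more than 500 bases apart, and its share is that of the gene's TPM. The 250 bases before this start (chr6:30737800-30738049, plus strand, RefSeq on GRCm38.p6) held 14 CpG dinucleotides, in capitals below because imprint control acts through methylation of CpG, against a median of 6 over all 32851 RefSeq starts.
Mest: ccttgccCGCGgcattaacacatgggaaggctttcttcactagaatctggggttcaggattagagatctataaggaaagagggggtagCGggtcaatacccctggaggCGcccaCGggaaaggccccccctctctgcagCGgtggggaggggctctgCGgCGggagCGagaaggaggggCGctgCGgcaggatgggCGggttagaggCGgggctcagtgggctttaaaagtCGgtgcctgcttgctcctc
This stretch held the 6-base core of the ZFP57 motif, TGCCGC on either strand, 2 times.

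The Dlk1-Dio3 domain on chromosome 12 was represented by coding genes of the paternal copy and noncoding genes of the maternal copy. Dlk1 (chr12:109452823-109463336, plus strand), a transmembrane relative of Notch ligands found on progenitor cells, was at 593 and 630 TPM. Meg3 (chr12:109541001-109571726, plus strand), the first long noncoding RNA of the domain, was at 366 and 451 TPM. Dlk1 stood above Meg3 in both replicates, by 0.70 and 0.48 on the log2 scale. Rian, a noncoding host of C/D box snoRNAs, was at 66.7 and 76.0 TPM. Mirg, a noncoding host of microRNAs, was at 12.9 and 15.7 TPM. The maternal RNAs were thus lower with distance from the Dlk1 side: Meg3 exceeded Rian by 2.51 ± 0.08 and Mirg by 4.83 ± 0.01 on the log2 scale, both beyond the replicate spread. The paternal coding genes were spread over a much wider range than the noncoding ones. Dlk1 exceeded Rtl1 by 9.15 ± 0.39 and Dio3 by 11.40 ± 0.77 on the log2 scale, the latter a ratio of uncertain size because Dio3 rests on 16 and 4 counts.

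The Meg3 transcripts began almost entirely at the first annotated start region, with 95.3% and 92.5% of the gene's TPM. The 250 bases before the RefSeq start of Meg3 (chr12:109540746-109540995, plus strand, GRCm38.p6), shown since most Meg3 RNA came from there, held 10 CpG, in capitals, and 1 copy of TGCCGC on either strand.
Meg3: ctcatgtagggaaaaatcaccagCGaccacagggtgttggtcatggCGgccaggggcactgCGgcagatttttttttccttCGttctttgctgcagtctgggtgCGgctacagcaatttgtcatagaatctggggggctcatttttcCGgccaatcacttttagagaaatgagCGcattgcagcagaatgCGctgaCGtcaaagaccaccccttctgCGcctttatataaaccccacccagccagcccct
Dlk1 RNA came mainly from transcripts starting between 109453455 and 109453660, with 90.8% and 89.2%. For Rian the sum was divided over 11 start regions, the largest with 41.1% and 38.9%.

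The domain also carries 61 microRNA hairpin genes with 113 mature microRNAs in RefSeq, which the libraries did not measure because only RNA longer than 200 nt was used. Of the hairpin genes, 19 lie in the sense direction within Meg3, Rian or Mirg, whose RNAs were measured, and 14 of these are in Mirg. Another 35 lie in none of the members of the domain. Of particular relevance to Rtl1 are 11 mature microRNAs from 6 hairpin genes on the opposite strand of Rtl1, in the direction of Meg3 and Rian. All 11 were complementary over their full length to the coding part of the Rtl1 transcript. They are shown because they pair fully with a gene at 0.86 and 1.34 TPM that lies between Meg3 at 366 and 451 TPM and Rian at 66.7 and 76.0 TPM; 5 of them follow, 5' to 3', with the seed (bases 2 to 8) in capitals. None of these 5 shares its seed with another microRNA of the domain.
miR-431-5p: uGUCUUGCaggccgucaugca
miR-433-3p: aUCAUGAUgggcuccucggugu
miR-127-3p: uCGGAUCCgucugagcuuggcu
miR-434-3p: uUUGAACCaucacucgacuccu
miR-136-5p: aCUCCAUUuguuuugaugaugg
In the 6358-base Rtl1 transcript, miR-127-3p is complementary to bases 2642 to 2663 and miR-136-5p to bases 199 to 220. Whether these microRNAs acted on Rtl1 was not measured. Among all 113, 9 seeds were shared by 2 microRNAs each. Within Mirg, miR-453 and miR-496a-5p form such a pair.
miR-453: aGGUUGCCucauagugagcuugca
miR-496a-5p: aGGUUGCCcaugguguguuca

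Of the 3 members in the Peg3 domain on chromosome 7, only Peg3 itself was clearly expressed. Peg3 (chr7:6703892-6730431, minus strand), a large zinc finger protein expressed from the paternal copy, was at 98.1 and 83.5 TPM. Usp29 runs in the other direction, with 163 bases between the RefSeq starts, and is also a paternal gene, yet it was at 0.15 and 0.04 TPM. Peg3 exceeded Usp29 by 10.19 ± 1.18 on the log2 scale, and by 6.51 ± 0.18 it exceeded the maternal neighbour Zim1. The size of the first ratio is uncertain because Usp29 had 10 and 2 counts. Of these 163 bases, the 146 that overlap no exon annotated in GENCODE M21 (chr7:6730432-6730577, minus strand, GRCm38.p6) are shown with their 5 CpG in capitals, since genes so unequal start on either side of this stretch.
Peg3-Usp29: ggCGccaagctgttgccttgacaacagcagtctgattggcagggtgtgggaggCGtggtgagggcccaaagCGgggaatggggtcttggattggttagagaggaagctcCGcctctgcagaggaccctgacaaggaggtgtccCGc
Neither TGCCGC nor GCCATNTT, a motif of YY1, was found in it on either strand. No match says only that these letters are not in this window.

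Plagl1 on chromosome 10 (chr10:13060504-13131694, plus strand), a zinc finger transcription factor of the paternal copy known to regulate other imprinted genes, was at 122 and 119 TPM, among the closest pairs of values in the set. Plagl1 transcripts from 1 start region took 98.9% of the gene's TPM in each library. Its unimprinted relative Plag1 lay 5.89 ± 0.06 lower on the log2 scale, at 2.03 ± 0.0424 TPM.

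The Snrpn-Ube3a domain on chromosome 7 has a human counterpart that is lost in Prader-Willi and Angelman syndromes. Of its members here, 1 was over 100 TPM, 3 were between 10 and 40 TPM in both libraries, with Mkrn3 and Magel2 below these. Ndn (chr7:62346569-62350262, plus strand), which encodes necdin of the MAGE family, was at 122 and 130 TPM. Its neighbour Magel2, of the same family and the same paternal copy, was 7.13 ± 0.09 lower on the log2 scale. Mkrn3, a ubiquitin ligase gene, was at 3.55 and 2.93 TPM, lower than Ndn by 5.28 ± 0.26 on the log2 scale. Snrpn, which encodes the spliceosomal protein SmN, was at 23.97 and 28.46 TPM, and Ube3a, a ubiquitin ligase imprinted in neurons, was at 36.6 and 34.7 TPM. The sign of Snrpn over Ube3a, -0.45 ± 0.23 on the log2 scale, did not hold by the rule used here, under which both replicates must share the sign and the mean must exceed 2 SD. Several genes of this domain are known mainly from neurons. In these libraries none of 6 brain markers reached 1 TPM, and the 8 markers of neurons and neuroendocrine cells summed to 72.6 and 77.1 TPM.

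Snurf is the upstream reading frame of the Snrpn transcript and is listed as a gene of its own. The 216 bases annotated as Snurf are contained whole in the Snrpn transcript, at bases 63 to 278, ahead of the Snrpn coding start at base 465. No read from within them can be assigned to Snurf alone. The estimator gave Snurf 79.4 and 26.7 expected counts over an effective length of 117 bases, which amounts to 25.96 and 12.32 TPM. Snurf was the only member to differ 2-fold between the replicates, and its level is uncertain for this reason. Snrpn over Snurf was -0.12 in replicate 1 and 1.21 in replicate 2 on the log2 scale.

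Grb10 and Ddc are neighbours on chromosome 11 with tissue-limited imprinting. Grb10 (chr11:11930508-12038683, minus strand), an adaptor that restrains signalling by the insulin and IGF receptors, was at 485 and 430 TPM. Ddc, aromatic L-amino acid decarboxylase, was at 13.4 and 14.9 TPM, lower by 5.02 ± 0.23 on the log2 scale. The promoter use of Grb10 is known to differ by parent: the upstream promoter drives the maternal copy in most tissues, and downstream promoters drive the paternal copy in neurons. Here the upstream start at 12037401 took 93.4% of Grb10 TPM in replicate 1 and 94.1% in replicate 2. The downstream start at 12027971 took 4.86% and 2.64%, and a region farther downstream, from 12026324 to 12026732, took 0.95% and 2.48%. Levels were 453 and 405 TPM for the upstream start and 23.6 and 11.4 TPM for the start at 12027971. The region farther downstream stood at 4.63 and 10.7 TPM. The 250 bases before each RefSeq start (chr11:12037421-12037670 and chr11:12027972-12028221, both minus strand, GRCm38.p6) are set side by side because they carry so unequal a share. The upstream stretch held 40 CpG and 81.2% G or C, and the downstream stretch 8 CpG and 54.0%, with CpG in capitals.
Grb10 upstream: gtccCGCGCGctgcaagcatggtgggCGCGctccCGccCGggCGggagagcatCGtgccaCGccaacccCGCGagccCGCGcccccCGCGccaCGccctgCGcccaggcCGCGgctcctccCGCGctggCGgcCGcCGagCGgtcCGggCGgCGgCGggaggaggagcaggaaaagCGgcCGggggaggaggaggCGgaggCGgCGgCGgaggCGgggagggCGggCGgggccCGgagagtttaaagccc
Grb10 downstream: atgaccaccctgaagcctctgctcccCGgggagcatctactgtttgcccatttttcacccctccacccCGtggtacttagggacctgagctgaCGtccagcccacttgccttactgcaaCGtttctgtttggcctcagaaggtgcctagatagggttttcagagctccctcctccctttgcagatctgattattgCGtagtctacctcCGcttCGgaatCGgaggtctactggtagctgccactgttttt
Neither held TGCCGC.

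Of the 6 members in the Kcnq1 domain on chromosome 7, 1 was high. Cdkn1c (chr7:143458339-143461050, minus strand), which encodes p57, an inhibitor of cyclin-dependent kinases expressed from the maternal copy, was at 249 and 259 TPM. The other maternal members of the domain lay between 2.69 and 8.05 TPM. Cd81 and Nap1l4, on the same chromosome but not among the members, passed 100 TPM and are given below. Kcnq1, a potassium channel subunit, was at 8.05 and 5.90 TPM. Phlda2, a pleckstrin homology protein that restrains growth of the placenta, was at 4.77 and 3.94 TPM. Slc22a18, a transporter gene, was at 2.98 and 5.14 TPM, or 4.06 ± 1.53 TPM, the widest spread among the maternal members of the domain relative to the mean. Ascl2, a factor of trophoblast and intestinal stem cells, was at 2.69 and 2.83 TPM. Cdkn1c exceeded Phlda2 by 5.87 ± 0.24, Slc22a18 by 6.02 ± 0.51 and Ascl2 by 6.53 ± 0.01 on the log2 scale. Cdkn1c was also the most abundant of the genes coding for inhibitors of its family, 2.61 ± 0.01 above Cdkn1a and 3.86 ± 0.13 above Cdkn1b.

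Kcnq1ot1, the paternal noncoding RNA that runs antisense through Kcnq1, was at 2.67 and 3.36 TPM. It lay below Kcnq1 in both replicates, with log2 ratios of TPM of -1.59 and -0.81. The order depends on length. Kcnq1ot1 had 5880 and 5250 expected counts over an effective length of 84296 bases, whereas Kcnq1 had 475 and 290, and with counts not divided by length the ratio was 3.90 on the log2 scale. The genes overlap by 93092 bases on opposite strands, and unspliced Kcnq1 RNA could be counted for Kcnq1ot1 if strand was not used. A like pair is Airn, the paternal noncoding RNA antisense to Igf2r. Airn was at 28.5 and 30.0 TPM, and its ratio to Igf2r was -0.87 ± 0.11 on the log2 scale, with 28354 bases of overlap. This value also depends on length: the effective length of Airn was 859 and 847 bases, and with counts not divided by length the ratio was -4.16. Of the 5 noncoding members, Airn came after Meg3 and Rian in TPM, and Kcnq1ot1 was lowest. By expected counts, not divided by length, Kcnq1ot1 stood above Rian, which had 3109 and 2622, and above Airn and Mirg. The order by counts and the ratio of Airn to Igf2r also depend on the annotation. Kcnq1ot1 is annotated as 1 transcript of 84395 bases, whereas the leading Airn transcript has 1113 bases. RNA of Airn outside its annotated transcripts would not be in these values.

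Gnas on chromosome 2 (chr2:174284320-174346744, plus strand) encodes the stimulatory G protein alpha subunit and, from other promoters, alternative products expressed from 1 parental copy. Its levels were 1315 and 883 TPM, the second highest gene of the set. The start region of the main G protein product, beginning at 174330006, took 90.6% and 85.3% of Gnas TPM. The start at 174284320, the position of the maternal Nesp product, took 4.65% and 8.05%. The start at 174297859, the position of the paternal XLαs product, took 1.02% and 1.59%, and the region from 174327570, that of the paternal exon 1A transcript, took 2.55% and 3.48%. The products of the imprinted starts were therefore a small part of Gnas RNA in both libraries. Nespas, the noncoding gene antisense to Nesp, was at 6.29 and 5.57 TPM.

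The difference of Gnas between the replicates lay in the main product. Its start region stood at 1192 and 753 TPM. The Nesp start stood at 61.2 and 71.0 TPM, the XLαs start at 13.38 and 14 TPM and the exon 1A region at 33.5 and 30.7 TPM. On the log2(TPM + 1) scale Gnas was -0.57 in replicate 2 against replicate 1, and 99.0% of genes within 2-fold of its level differed by less. Gm20721, annotated on the opposite strand over 16394 bases of Gnas, moved the other way, from 20.1 to 75.4 TPM. Whether reads of the main product were assigned to Gm20721 was not tested.

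**Figure D2:**
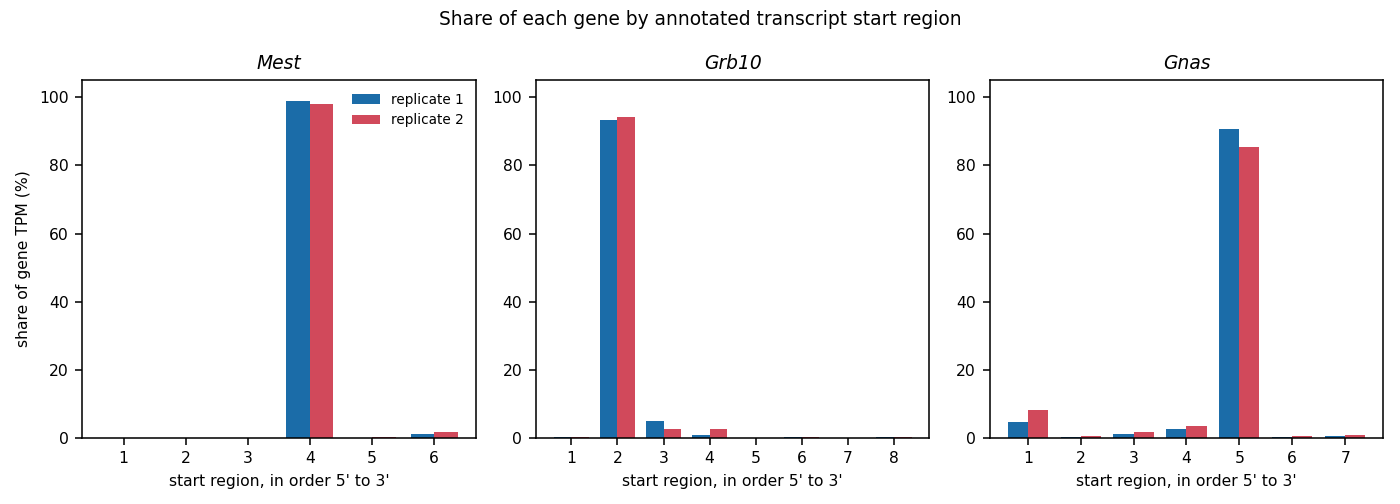
Share of gene TPM in percent by annotated start region, ordered 5' to 3', for Mest, Grb10 and Gnas, with replicate 1 and replicate 2 as paired bars. In each gene 1 region holds over 85% in both replicates: 98.9% and 98.0% for Mest, 93.4% and 94.1% for Grb10, and 90.6% and 85.3% for Gnas.

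Sgce and Peg10 start back to back on chromosome 6 and are both paternal genes. Sgce, epsilon sarcoglycan, was at 63.3 and 62.4 TPM. Peg10, a coding gene derived from a retrotransposon and known for its role in placenta, was at 2.32 and 3.16 TPM, lower by 4.54 ± 0.33 on the log2 scale. Their maternal neighbour Asb4, an ankyrin repeat protein with a SOCS box, was at 5.60 and 4.75 TPM, and the sign of Peg10 over Asb4 did not hold, at -0.93 ± 0.48. Among paternal genes on their own, Slc38a4, a sodium-coupled transporter of neutral amino acids, was at 53.9 and 47.6 TPM. Impact, an inhibitor of the kinase GCN2, was at 20.3 and 19.6 TPM.

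Several paternal genes are small genes within the introns of another gene, and their levels ran from 1.45 to 519 TPM. Nnat (chr2:157560078-157562522, plus strand), which encodes the membrane proteolipid neuronatin, was at 519 and 514 TPM, 3.50 ± 0.06 above its host Blcap on the log2 scale. Nap1l5, a retrogene of the nucleosome assembly protein family, was at 1.45 and 2.08 TPM, with a log2 ratio of -1.68 ± 0.58 to its host Herc3. Zrsr1, a retrogene of the splicing factor gene Zrsr2, was at 1.86 and 1.61 TPM and its log2 ratio to its host Commd1 was -7.51 ± 0.12. All 3 lie on the strand opposite their host. Mcts2, a retrogene of the translation factor gene Mcts1, lies on the strand of its host H13 and was at 21.8 and 22.8 TPM.

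H13, which encodes signal peptide peptidase, is known to use different poly(A) sites on the maternal and paternal copies, with short forms ending ahead of Mcts2 where Mcts2 is active. H13 was at 82.8 and 80.4 TPM, 1.87 ± 0.08 above Mcts2 on the log2 scale. Transcripts of H13 that end ahead of Mcts2 took 12.5% and 14.2% of its TPM, and those that reach past Mcts2 took 87.5% and 85.8%. The short forms are 2 annotated transcripts. The coding one took 5.59% and 6.99%, and the other, annotated as a retained intron, took 6.94% and 7.17%, so the larger share of short forms in each library was not a coding form.

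Mcts2 and Zrsr1 could be told from their parent genes by sequence. This does not separate them from unspliced RNA of their hosts. Mcts2 overlaps H13 over 912 bases on the same strand. Zrsr1 overlaps Commd1 over 4492 bases on the opposite strand, which matters if strand was not used in counting. Mcts2 and Mcts1 each have a coding part of 546 bases, and these are identical at 465 positions, or 85.2%, without gaps. The longest identical run was 29 bases, and none of the 813 windows of 100 bases in Mcts2 occurs in any Mcts1 transcript. The first 90 coding bases, from the GENCODE M21 transcripts, show 15 differences, in capitals, which is what separates reads of a gene at 22.3 ± 0.764 TPM from those of a parent at 78.99 ± 1.499 TPM.
Mcts2: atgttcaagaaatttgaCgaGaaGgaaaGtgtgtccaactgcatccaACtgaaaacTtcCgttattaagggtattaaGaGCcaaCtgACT
Mcts1: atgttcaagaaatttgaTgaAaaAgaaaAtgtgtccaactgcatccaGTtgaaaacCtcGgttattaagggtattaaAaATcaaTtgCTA
Zrsr1 was identical to Zrsr2 at 80.0% of 1282 aligned coding bases, with a longest identical run of 37 bases. Both retrogenes lay below their parents, with log2 ratios of -1.83 ± 0.02 for Mcts2 over Mcts1 and -4.53 ± 0.02 for Zrsr1 over Zrsr2.

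Against unimprinted relatives, imprinted genes stood on either side. Dlk1 exceeded Dlk2 by 7.69 ± 0.20 and Grb10 exceeded the related adaptor gene Grb14 by 3.80 ± 0.04 on the log2 scale. Copg2 and Phlda2 lay below their relatives, with log2 ratios of -2.63 ± 0.14 to Copg1 and -3.61 ± 0.21 to Phlda3. Over all 33 pairs of neighbours, hosts and relatives, the sign held in 30. The 3 pairs where it did not were Peg10 over Asb4, Snrpn over Snurf and Snrpn over Ube3a.

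**Figure D3:**
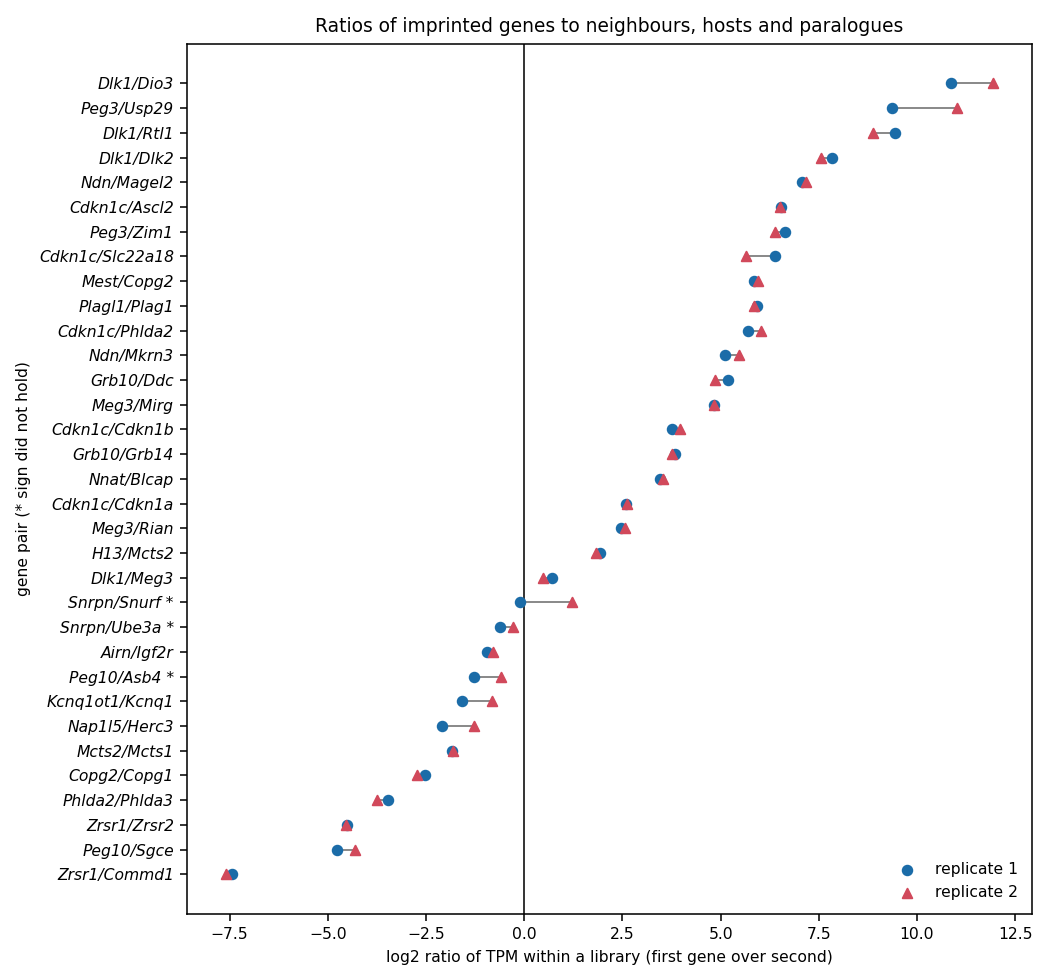
Log2 ratio of TPM within a library for 33 gene pairs, first gene over second, with replicate 1 as circles and replicate 2 as triangles joined by a line, and an asterisk where the sign did not hold. Ratios run from -7.51 for Zrsr1 over Commd1 to 11.40 for Dlk1 over Dio3, and the 3 marked pairs lie close to 0.

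Promoter sequence was available in RefSeq for 32 members at 46 starts. The first 250 bases upstream held at least 10 CpG at 1 or more starts in 18 of the 32 genes, or 56.3%, beside 40.2% of all 27025 genes. The hexamer TGCCGC, on either strand, was found at a start of 7 genes, or 21.9%, beside 9.84% of all genes: Mest, Copg2, Meg3, Zim1, Plagl1, Nap1l5 and Mcts2. GCCATNTT was found in 3 genes (Mkrn3, Ube3a and Slc38a4), or 9.38%, beside 4.49% of all. A gene with more starts has more chances of a match, and all 27025 genes had 32851 starts. Counted by start, 47.8% of member starts held at least 10 CpG, beside 37.8% of all starts. TGCCGC was at 17.4% of member starts beside 8.68% of all, and GCCATNTT at 6.52% beside 3.91%. Starts close together were counted apart in this count. The Mest starts at 30738050 and 30738053 both count, though their stretches largely overlap and hold the same hexamers. A match is a description of the letters, not a bound site, and control regions often lie away from the start. Genes with the hexamer ranged from Zim1 at 0.995 ± 0.00707 TPM to Mest at 1337 ± 71.1 TPM. Highly expressed members without it included Dlk1, Nnat, Gnas and Grb10.

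The leading transcript of a member was mostly the same in both pools. Of the 34 members whose mean reached 1 TPM, 23 had several annotated transcripts, and in 22 the same transcript led in both replicates. In 19 the leader held at least 50% of the gene's TPM. The leading transcript held 93.7 ± 0.502% of Grb10 and 93.4 ± 0.509% of Mest, and in Meg3 it held 81.9 ± 2.52%. Noncoding hosts were more divided, with 36.6 ± 2.45% for the leader of Rian and 33.3 ± 0.948% for that of Mirg. Ddc was the exception, where the transcript with the highest mean share held 55.9% and 37.2% and led in replicate 1 alone. Another 11 members had a single transcript.

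Between the replicates, the share of imprinted genes at 2-fold was near that of all genes. Differences were taken as log2(TPM + 1) of replicate 2 less that of replicate 1. Of the 34 members compared, 1 reached 2-fold (Snurf, at -1.02), beside 2.67% of the 15493 genes whose mean reached 1 TPM. The median difference was -0.02, with 16 genes higher in replicate 2 and 18 lower, and the median over all genes compared was 0.0015. Nnat differed by -0.02 and Plagl1 by -0.04, in contrast with Slc22a18 at 0.63 and Gnas at -0.57. Set beside genes within 2-fold of its level, a member differed by more than 50% of them in 23 of 34 cases.

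In the Dlk1-Dio3 domain, all 5 members compared (Dlk1, Meg3, Rian, Mirg and Rtl1) were higher in replicate 2, by a median of 0.26. Dio3, too low to be compared, was lower in replicate 2, at 0.32 and 0.16 TPM. Meg3 differed by 0.30, and 96.4% of genes within 2-fold of its level differed by less. Dlk1, from the other parental copy, differed by 0.09. The noncoding members outside the domain, Kcnq1ot1 and Airn, were also higher in replicate 2, by 0.25 and 0.07. The 8 liver markers (median 2.79) and the 8 skeletal muscle markers (median 1.34) were all higher in replicate 2 as well. So were the 4 thymus markers compared (median 1.13), 5 of 6 markers of neurons and neuroendocrine cells (median 0.24) and 4 of 6 of lung epithelium (median 0.28). Dlk1 and Meg3 are known to be expressed in fetal liver and muscle. The part of any of these tissues in the difference was not tested. Cardiac markers were lower in replicate 2 in 5 of 7 compared.

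**Figure D4:**
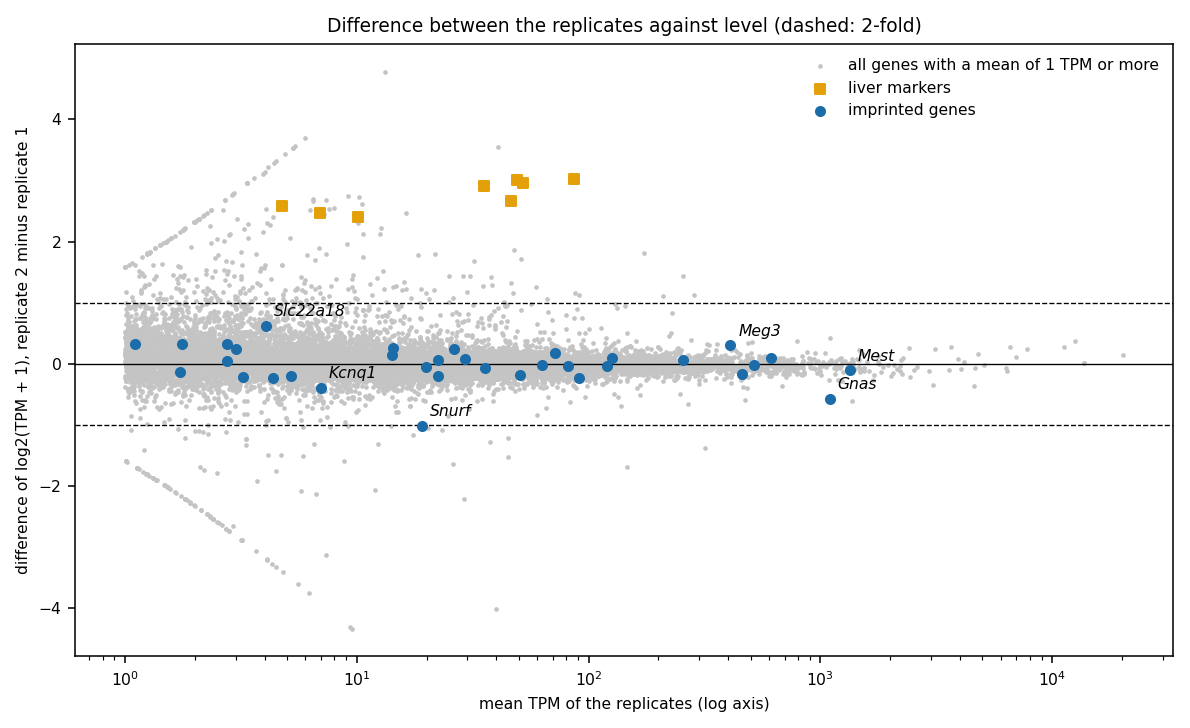
Replicate 2 less replicate 1, as a difference of log2(TPM + 1), against mean TPM on a log axis, with all 15493 compared genes in grey, imprinted genes as blue circles and liver markers as yellow squares. Among imprinted genes Snurf (-1.02), Slc22a18 (0.63), Gnas (-0.57) and Kcnq1 (-0.39) lie farthest from 0, and the liver markers shown lie above the 2-fold line.

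Genes known to keep imprints, or to lay down or remove DNA methylation, were expressed beside the imprinted genes. The list of 16 includes Dnmt3a, Dnmt3b and Dnmt3l, which lay methylation down, and Tet1, Tet2 and Tet3, which help remove it. Of the 16, 14 reached 1 TPM in both replicates. Trim28, the corepressor that binds ZFP57, was at 163 ± 3.17 TPM, Uhrf1, which guides maintenance methylation, at 106 ± 3.94 TPM, and the insulator protein gene Ctcf at 94.4 ± 2.64 TPM. Zfp57 was at 60.2 ± 2.05 TPM and the maintenance methyltransferase gene Dnmt1 at 70.0 ± 3.97 TPM. The germ line and egg factors Dnmt3l and Dppa3 missed the threshold, at 1.37 and 0.55 TPM for Dnmt3l and 0.32 and 0 TPM for Dppa3.

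Among 37 measured genes reported as imprinted in at least some tissue but not among the 38, 30 reached 1 TPM in both replicates and the median was 13.1 ± 0.445 TPM. The highest were Cd81, a tetraspanin gene on chromosome 7, at 650 ± 11.1 TPM, Commd1 at 316 ± 6.03 TPM and Nap1l4 at 169 ± 0.651 TPM. On chromosome 7, the growth factor gene Igf2 was at 380 and 412 TPM and H19 at 424 and 472 TPM. These values were inside the range that Meg3 and Nnat span.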

How the data were processed

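Total RNA-seq of 2 pools of embryonic lung was analysed from the gene and transcript tables the authors deposited, for which the notes deposited with them name build mm10 and GENCODE release M4. The aligner, the quantifier and the strand setting are not given in the sources used here. The expected counts the authors deposited are estimated read numbers in which reads matching several genes are divided among them. The TPM values deposited are scaled after division by effective length, spike-ins included. The score columns, per the file headers, are bounds of a credibility interval, and the percent columns deposited give a transcript's share of its gene's TPM.

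Symbols and coordinates came from GENCODE M21 by Ensembl identifier without version, which matched 42462 of 43346 gene rows. Another 26248 rows with bare numbers were not used. Detection meant 1 TPM or more in both replicates. Differences used log2(TPM + 1) for genes averaging 1 TPM or more. The sign of a ratio held when both replicates shared it and the mean exceeded 2 SD. An exact sign-flip test over 2 replicates cannot give a two-sided p below 0.5, so none was run and the text holds no p-value. The rule for differences was run on simulated counts with planted changes larger than 2-fold and only counting noise. That run checks the rule as coded, and neither the spread between pools nor the division of reads among genes was simulated. Every member is named or counted, and beyond them the fixed gene pairs, the 3 highest genes of a list and up to 4 by role are named. The gene and marker lists held 160 places, of which 4 (Peg13, Zim2, Zim3 and Zfp264) were not matched and not analysed here. The members and lists were chosen with earlier results of these data known. Sequences came from RefSeq on GRCm38.p6 and GENCODE M21 transcripts. Peg10, Kcnq1, Cdkn1c, Sgce, Rtl1 and Impact have no promoter entry used here.

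For alternatives, rounded expected counts (whole numbers) entered edgeR 4.0.16 (TMM) and DESeq2 1.42.0 (size factors) in R 4.3.3. Other steps used Python 3.11.15, NumPy 2.4.6, pandas 2.3.3, Biopython 1.88 and matplotlib 3.10.9.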

Additional observations from a re-analysis of the deposited data

How the results depend on the processing

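Posterior mean TPM, TPM rescaled over gene rows, and leaving out each replicate kept the counts of members at 1 TPM (33 to 35 genes), at 100 TPM (9 genes) and the median TPM (20.2 to 22.9) close to the values reported. Thresholds of 0.5 and 2 TPM gave 36 and 31 genes. Members at 2-fold between the replicates numbered 1 in each setting except TMM-scaled expected counts, where the number was 0, since Snurf then differed by -0.63 and a pseudocount of 1 weighs more on its few counts. The ratio of Kcnq1ot1 to Kcnq1 turned to 3.90 on the log2 scale when expected counts were not divided by length. Pairs whose sign held numbered 30 to 32, and genes with a leading transcript of at least 50% numbered 18 to 20, although the leading share of Ascl2 was 51.7% from posterior mean TPM in place of 100%. The start region shares from posterior mean TPM were added after seeing the data. No paired analysis was possible because the series holds a single group. With 2 libraries, spread between embryos, pools and library preparations cannot be told apart, and shares of overlapping transcripts rest on the authors' estimator.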
